A study of Mus musculus with 12 samples.

Results

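The serotonin receptors described here are 7 mouse genes, Htr1a, Htr1b, Htr2a, Htr2c, Htr4, Htr5b and Htr7, out of 17097 genes named on the array. Members were taken as the probe sets whose annotated symbol is one of these 7, and the 7 were picked with earlier results of the same arrays in view, from log2 levels compared over the 4 groups. Their changes after kainic acid are therefore given as a description, and calls on them are not read as tests. Of the 7, 6 had at least 1 probe set, 10 probe sets in all, and 5 passed the filter on low values and were among the 13853 genes tested. Htr2a had no probe set under its symbol in the annotation used and was not analysed here.

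RNA came from the hippocampus on the injected side of the brain, measured on 12 Mouse MG-430 PM strips from Affymetrix. In the 2 KA groups, 0.3 µg of kainic acid (KA), a glutamate receptor agonist that sets off seizures, was injected into the amygdala in 0.2 µl of phosphate-buffered saline, and lorazepam, a benzodiazepine that shortens seizures, followed 40 min later at 6 mg/kg into the peritoneum. Control mice had 0.2 µl of the saline into the amygdala and no seizure, and whether lorazepam was given to them is not stated in the labels. Each group holds 3 arrays: KA at 8 h, control at 8 h, KA at 14 d and control at 14 d. The labels give no strain, sex or age, and do not say that each array is its own animal, so the spread between arrays may be partly technical. In the samples' time entries the KA arrays titled 8 h read 11 to 13 h and their controls 8 to 10 h. The titles were used, and if the entries are right, KA and time cannot be told apart at the early point. The values are log2 intensities as the authors deposited them, where a difference of 1 is a doubling. A level can be compared between arrays for 1 probe set and not between probe sets, and with 3 arrays a group it is the number of arrays that limits the precision.

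Serotonin reaches the hippocampus along axons of neurons in the raphe nuclei of the brainstem, and its receptors there sit on pyramidal cells, granule cells, interneurons and axon endings. Htr1a and Htr1b encode receptors that couple to Gi/o proteins, which lower cyclic AMP and, for Htr1a, open GIRK potassium channels that hold neurons back from firing. Htr5b encodes a receptor of the 5-HT5 class, whose signalling is less well known. Htr2a and Htr2c encode Gq-coupled receptors that act through phospholipase C, and Htr4 and Htr7 encode Gs-coupled receptors that raise cyclic AMP and make neurons more excitable.

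The arrays were alike in scale, with medians of 4.90 to 4.95 (log2) and correlations of 0.989 to 0.997 within groups. Markers of hippocampal cells were well above background on all 12 arrays, among them Prox1 of dentate granule cells (8.03 to 9.03, log2) and Wfs1 of CA1 pyramidal cells (9.42 to 9.88, log2). Tph2 and Slc6a4, which mark serotonin neurons, lay below the background of GC-rich control probe sets (4.10 to 4.68, log2) on all 12. At 8 h the 3 KA arrays stood apart in sex-linked genes: Xist, the transcript of the inactive X chromosome, had log2 levels of 8.71, 7.39 and 7.84 in KA arrays, against 4.43, 4.61 and 4.34 in controls. The Y-linked gene Eif2s3y had 5.57, 6.45 and 6.83 in the same KA arrays, against 7.46, 7.59 and 7.96 in controls, and the 14 d groups overlapped for both genes. All 3 KA arrays at 8 h are affected, so this difference and KA cannot be told apart for any result at 8 h, and Htr2c is itself on the X chromosome. KA replicate 3 at 8 h was low in Ttr, the transthyretin gene of the choroid plexus, at 9.57 (log2), against 11.57 to 12.26 on the other 11 arrays.

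At 8 h after KA, Htr1a was the receptor that differed most from its controls, 2.50-fold lower, and Htr4 was 1.31-fold higher. Of the 5 receptors tested, 2 were past a limma adjusted p of 0.05 at 8 h, 1 lower and 1 higher, where 17.5% of all genes tested were called, 9.55% as lower and 7.92% as higher. The 3 KA and 3 control arrays at 8 h did not overlap for 3 of the 5 (Htr1a, Htr1b and Htr4), beside 33.8% of all genes. At 14 d none of the 5 was called, beside 2.56% of all genes, and the arrays did not overlap for 2 (Htr1a and Htr4), beside 16.5%. Since the receptors were picked on these contrasts, nothing is read from these counts.

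**Figure D1:**
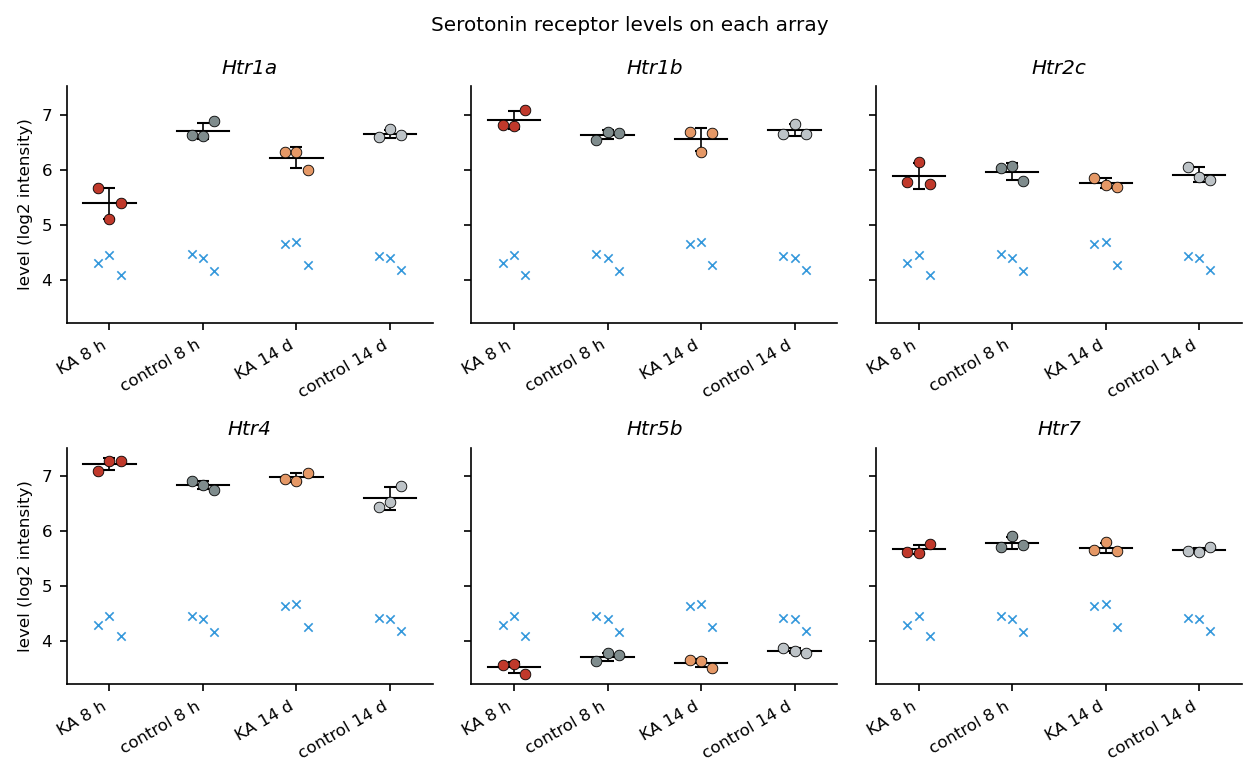
Level (log2 intensity) of each of the 6 measured receptors on every array, with the mean as a horizontal bar, the SD as error bars (n = 3) and the array's GC-rich background as blue crosses. Htr1a lies lowest in KA arrays at 8 h, at 5.11 to 5.66, and Htr5b lies under the background on all 12 arrays; levels of different genes cannot be set against each other.

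Htr1a encodes the 5-HT1A receptor, which in the hippocampus sits mainly on CA1 pyramidal cells and dentate granule cells and quiets them. Its brighter probe set, 1450219_PM_at, on chromosome 13, had log2 levels of 5.66, 5.11 and 5.40 in KA arrays at 8 h, against 6.64, 6.61 and 6.88 in controls. At 14 d it had 6.33, 6.33 and 6.00 in KA arrays, against 6.59, 6.74 and 6.64 in controls. At both times every KA array was lower than every control array. The log2 change was -1.32 ± 0.13 (SE, limma, n = 3 each) at 8 h, the fifth lowest among all 13853 genes tested, and -0.43 ± 0.13 at 14 d, a level 1.35-fold lower.

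In order of level, KA arrays at 8 h came lowest for Htr1a (5.39 ± 0.28, SD, n = 3), then KA arrays at 14 d (6.22 ± 0.19), and both control groups on top. The steps from KA at 8 h to KA at 14 d and from there to the 14 d controls were each wider than the groups' ranges. The controls at 14 d (6.66 ± 0.08) and at 8 h (6.71 ± 0.15) overlapped. On this probe set the change at 14 d minus the change at 8 h was 0.89 ± 0.18 (SE), a smaller deficit at 14 d than at 8 h. Htr1a was the 1 receptor of 5 called in that difference, beside 5.52% of all genes. That call only describes a gene picked on these contrasts. With the mean of both Htr1a probe sets in place of the brighter one, this difference was 0.44 and was no longer called.

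The second Htr1a probe set, 1438710_PM_at, gave a much smaller change. It lay near background, at 4.46 to 4.90 (log2), and above it on 11 of 12 arrays. Its change was -0.18 ± 0.09 (SE) at 8 h and -0.20 ± 0.09 at 14 d, with no overlap between groups at either time. The direction at each time was thus shared between the probe sets and the size was not. Its change at 14 d minus its change at 8 h was -0.01 ± 0.13 (SE), against 0.89 for the brighter set, so the smaller deficit at 14 d was seen on the brighter set only.

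Whole hippocampus was measured, so fewer cells of a type and less RNA per cell cannot be told apart, for Htr1a as for the other receptors. Among all genes tested, 17.5% were called at 8 h and 2.56% at 14 d. Of the cell types that carry Htr1a, dentate granule markers had 5 of 6 genes tested. Of these 2 rose and 2 fell at 8 h, and 2 rose and 1 fell at 14 d. At 8 h Dsp (desmoplakin) had the lowest change of all genes, -1.97 ± 0.17 (SE, limma adjusted p = 1e-06, n = 3 each), and Calb1 changed by -0.43. Pdzd2 and C1ql2 rose there by 1.02 and 0.34 (log2), and Prox1, at 0.35, was not called. The list's summed intensity was 1312 to 1629 in KA arrays at 8 h, against 1433 to 1699 in controls, and 991 to 1320 in KA arrays at 14 d, against 1048 to 1286 in controls. Of 4 CA1 pyramidal markers tested, 1 fell at 8 h (Ccn3) and 1 at 14 d (Fibcd1, which had the lowest change of all genes there, -0.96 ± 0.11). Their summed intensity was 1179 to 1321 in KA arrays at 8 h, against 1249 to 1544 in controls, and 1294 to 1423 in KA arrays at 14 d, against 1577 to 1615 in controls. Such sums, here and below, add unlogged intensities, so the brightest genes of a list, as Wfs1 among the CA1 markers, weigh most. Of the dentate markers 1 was at or below background on all arrays, and of the CA1 markers none was. The part of these shifts in the Htr1a levels was not tested.

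Htr1b encodes the 5-HT1B receptor, found mainly on axon endings, where it reduces transmitter release. Its single probe set, 1422288_PM_at, on chromosome 9, had log2 levels of 6.82, 6.80 and 7.10 in KA arrays at 8 h, against 6.54, 6.70 and 6.67 in controls. At 14 d it had 6.69, 6.32 and 6.67 in KA arrays, against 6.66, 6.84 and 6.65 in controls. Every KA array at 8 h was above every control array, and at 14 d the groups overlapped. The log2 change was 0.27 ± 0.11 (SE) at 8 h and -0.16 ± 0.11 at 14 d, and neither was called.

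The 2 changes of Htr1b thus had opposite signs, differing by -0.43 ± 0.16 (14 d minus 8 h, SE), which was not called. In order of level the KA group at 8 h came highest (6.90 ± 0.17, SD, n = 3) and the KA group at 14 d lowest (6.56 ± 0.21). The controls, at 6.72 ± 0.11 at 14 d and 6.64 ± 0.08 at 8 h, lay between them, and each group overlapped its neighbour in that order. Without KA replicate 2 at 14 d, the lowest array there, the 14 d change was -0.04.

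The sequences upstream of these 2 genes are shown because they belong to the Gi/o-coupled receptors, with Htr1a the member furthest from its controls and Htr1b a close relative that was not called. Each is the 250 bases before the gene's start in RefSeq (build GRCm38.p6), 5′ to 3′ on the gene's strand, in lower case with CpG pairs in capitals. Htr1a lies at chr13:105443443-105443692 (plus strand) and Htr1b at chr9:81633833-81634082 (minus strand).
Htr1a: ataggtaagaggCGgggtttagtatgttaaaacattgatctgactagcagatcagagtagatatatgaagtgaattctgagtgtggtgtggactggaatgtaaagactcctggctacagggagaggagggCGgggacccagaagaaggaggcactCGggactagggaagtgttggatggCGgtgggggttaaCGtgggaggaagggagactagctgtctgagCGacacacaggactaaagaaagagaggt
Htr1b: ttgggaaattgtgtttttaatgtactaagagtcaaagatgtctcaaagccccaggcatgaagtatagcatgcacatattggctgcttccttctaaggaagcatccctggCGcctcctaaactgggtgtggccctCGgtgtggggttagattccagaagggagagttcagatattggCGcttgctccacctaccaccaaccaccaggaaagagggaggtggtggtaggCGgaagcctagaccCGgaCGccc
Both windows hold 6 CpG pairs, the median over 32851 promoters, and their GC shares were 50.4% for Htr1a and 52.4% for Htr1b, where the median promoter had 52.4%. Both strands were searched for 4 motifs of factors that respond to activity or stress hormones. These were the cyclic AMP response element TGACGTCA (in 1.55% of all promoter windows of this length), the AP-1 site TGANTCA (6.75%), the glucocorticoid response element's core TGTTCT (16.1%) and the Egr site GCGNGGGCG (4.7%). None of these 4 contains another. Neither window holds any of them, which says only that these letters are not in these 250 bases.

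Htr5b encodes the 5-HT5B receptor, known in rodents from the CA1 field and the habenula. Its probe set, 1422196_PM_at, on chromosome 1, had log2 levels of 3.58, 3.60 and 3.42 in KA arrays at 8 h, against 3.64, 3.78 and 3.75 in controls. At 14 d it had 3.66, 3.65 and 3.52 in KA arrays, against 3.88, 3.82 and 3.79 in controls. KA arrays were lower than control arrays without overlap at both times, yet all 12 values were under the arrays' GC-rich background, so the probe set was not well above background in any group. It did not pass the filter and was not tested, and no fold is given.

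Htr4 encodes the 5-HT4 receptor, which in the rodent hippocampus is carried by granule and pyramidal cells and raises their excitability. The brighter of its probe sets, 1427654_PM_a_at, on chromosome 18, had log2 levels of 7.11, 7.29 and 7.28 in KA arrays at 8 h, against 6.91, 6.85 and 6.76 in controls. At 14 d it had 6.96, 6.92 and 7.07 in KA arrays, against 6.44, 6.53 and 6.83 in controls. At each time every KA array was above every control array. The log2 change was 0.39 ± 0.10 (SE) at 8 h and 0.38 ± 0.10 at 14 d, about 1.31-fold and 1.30-fold higher.

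The Htr4 change was called at 8 h and not at 14 d, with sizes close to each other: the difference of the 2 changes was -0.003 ± 0.143 (SE). At 8 h the call was lost without control replicate 3, KA replicate 2 or KA replicate 3, where the change was 0.35, 0.36 and 0.36. At 14 d the change was 0.50, and called, without control replicate 3, the highest control array. Htr4 thus lies near the threshold at both times, and a call at 1 time only does not show that the times differ. Of 3 CA3 pyramidal markers tested, 2 rose at 8 h and none was called at 14 d, beside 17.5% and 2.56% of all genes called. The summed intensity of the 5 with a probe set was 1024 to 1319 in KA arrays at 8 h, against 737 to 797 in controls, and 581 to 907 in KA arrays at 14 d, against 691 to 836 in controls, and 2 of the 5 were at or below background on all arrays. Granule cells also carry Htr4, and 5 dentate granule markers were tested. Of these 2 rose and 2 fell at 8 h, and 2 rose and 1 fell at 14 d. Pdzd2 changed by 1.02 at 8 h and 0.64 at 14 d (log2), and C1ql2 by 0.34 and 0.48. Dsp changed by -1.97 and -0.71, and Calb1 by -0.43 and -0.21, the last not called. Prox1, at 0.35 and 0.18, was not called. The part of the CA3 and dentate markers in the Htr4 levels was not tested.

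The Htr4 group means ran, from the highest, in the order KA at 8 h (7.23 ± 0.10, SD, n = 3), KA at 14 d (6.98 ± 0.08), control at 8 h (6.84 ± 0.07) and control at 14 d (6.60 ± 0.21). The first 3 groups did not overlap with their neighbours in that order, and the control groups overlapped. Controls at 14 d were lower than controls at 8 h by a log2 change of -0.24 ± 0.10 (SE), which was not called. None of the 5 receptors was called between the control groups, beside 1.8% of all genes. The second Htr4 probe set, 1443365_PM_at, was above background on 8 of 12 arrays, at 4.25 to 4.64 (log2), and its change was 0.10 ± 0.09 (SE) at 8 h and 0.16 ± 0.09 at 14 d.

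Htr7 encodes the 5-HT7 receptor, which raises cyclic AMP in pyramidal cells and is also common in the thalamus. Its brighter probe set, 1435332_PM_at, on chromosome 19, had log2 levels of 5.63, 5.61 and 5.77 in KA arrays at 8 h, against 5.71, 5.92 and 5.75 in controls. At 14 d it had 5.67, 5.81 and 5.64 in KA arrays, against 5.65, 5.63 and 5.71 in controls. The groups overlapped at both times. The log2 change was -0.12 ± 0.08 (SE) at 8 h and 0.04 ± 0.08 at 14 d, neither called, and its dimmer probe set, 1422235_PM_at, gave 0.06 ± 0.08 and -0.01 ± 0.08. All 4 group means of the brighter set lay between 5.66 and 5.80, with each group overlapping its neighbour in order.

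Htr2c, on the X chromosome, encodes the 5-HT2C receptor, which is known from hippocampal neurons and at high level from the choroid plexus. Its brighter probe set, 1450477_PM_at, had log2 levels of 5.77, 6.15 and 5.74 in KA arrays at 8 h, against 6.04, 6.07 and 5.80 in controls. At 14 d it had 5.86, 5.72 and 5.69 in KA arrays, against 6.06, 5.88 and 5.81 in controls. KA and control arrays overlapped at both times, and the 4 groups overlapped their neighbours in order of level. The log2 change was -0.08 ± 0.12 (SE) at 8 h and -0.16 ± 0.12 at 14 d, neither called.

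The second Htr2c probe set, 1435513_PM_at, ranged from 5.49 to 6.15 (log2) over the 12 arrays, overlapped at both times and changed by -0.05 ± 0.12 (SE) at 8 h and -0.24 ± 0.12 at 14 d. Of 8 choroid plexus markers 7 were tested and none was called at either time, beside 17.5% of all genes at 8 h and 2.56% at 14 d. Their summed intensity was 937 to 5335 in KA arrays at 8 h, against 4150.0 to 5073 in controls, and 3329 to 4184 in KA arrays at 14 d, against 3495 to 5616 in controls. Ttr, a very bright gene, weighs most in these sums. KA replicate 3 at 8 h, the array low in Ttr, had 5.74 for the brighter Htr2c set, close to the 5.77 of KA replicate 1. Without it the Htr2c change at 8 h was -0.01, and without KA replicate 2, the highest KA array, it was -0.22, called in neither case. The markers' part in the Htr2c level was not tested, and 1 of the 7 was at or below background on all arrays.

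**Figure D2:**
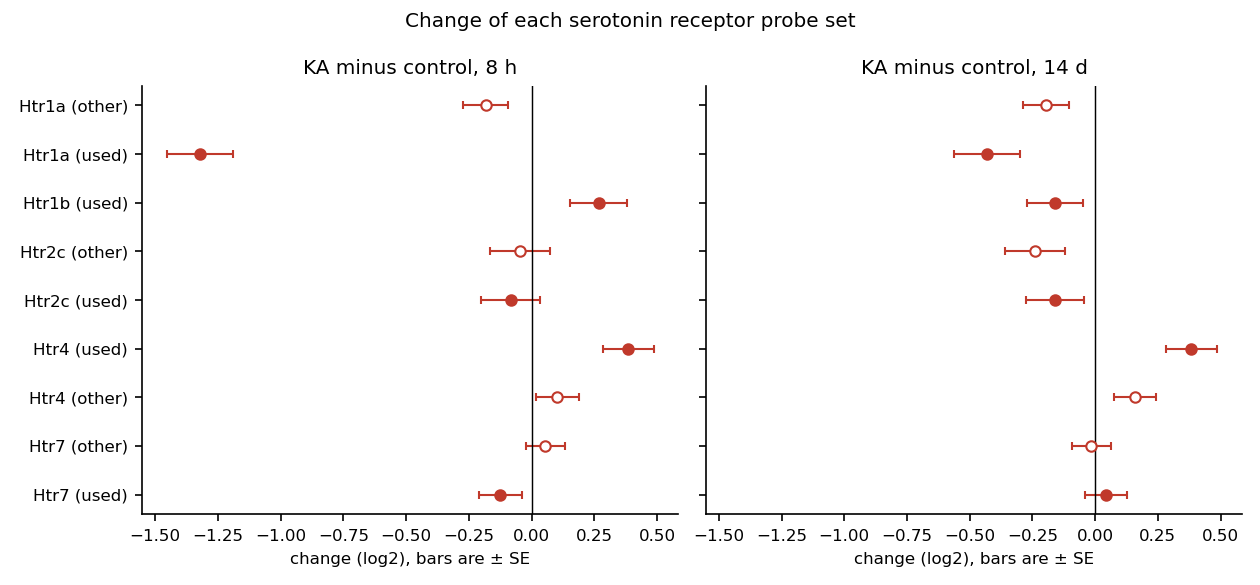
Log2 change (KA minus control) of the 9 receptor probe sets above the filter, at 8 h and at 14 d, with SE bars from the limma fit (n = 3 per group); filled points are the brighter set of a gene and open points its other set. The Htr1a set used stands at -1.32 at 8 h and the other Htr1a set at -0.18, and the Htr4 set used stands at 0.39 and 0.38.

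**Figure D3:**
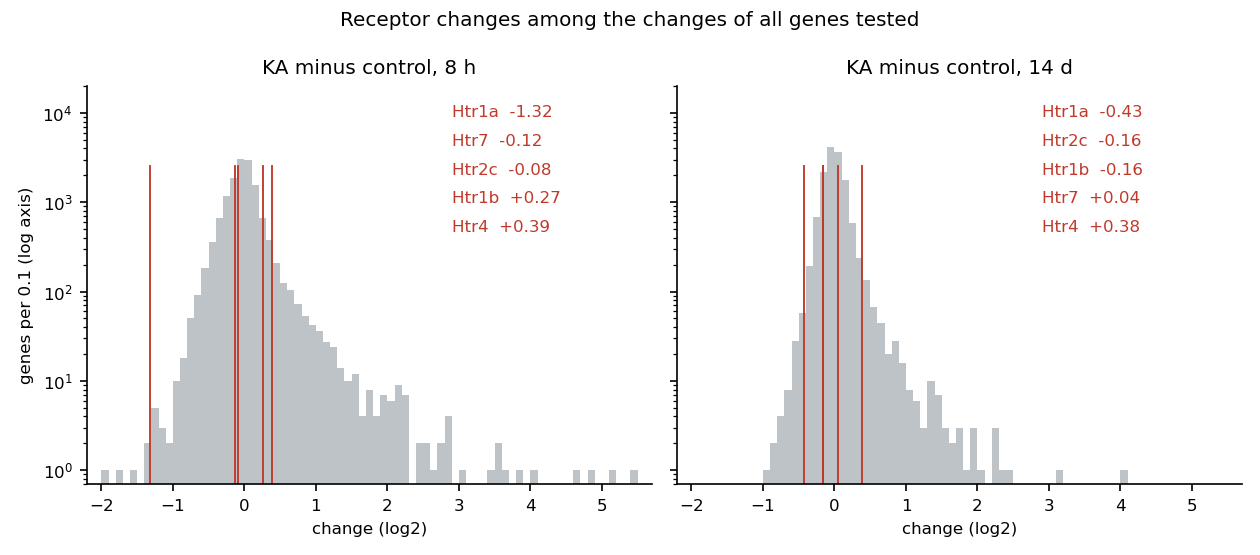
Number of genes per 0.1 of log2 change (KA minus control, log axis, 13853 genes tested) at 8 h and at 14 d, with red lines at the 5 receptors tested. Htr1a lies at the lower edge at 8 h, with 4 genes below it, and nearer the bulk at 14 d, where its change of -0.43 ranked 78 from the lowest.

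Set against all genes, Htr4 lay on the upper side of the distribution at both times, while Htr1b lay on the upper side at 8 h and on the lower side at 14 d. At 8 h, 94.0% of genes had a lower change than Htr4, 90.3% a lower change than Htr1b, 35.1% a lower one than Htr2c and 28.1% a lower one than Htr7. At 14 d these shares were 97.1% for Htr4, 65.1% for Htr7, and 11.3% for both Htr1b and Htr2c, while 0.556% of genes had a lower change than Htr1a. The median gene changed by -0.02 at 8 h and -0.01 at 14 d (log2), on arrays that the normalization had brought to near-equal medians.

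Pearson correlation over the 12 arrays was used to name the 3 genes whose pattern was most like each receptor, out of 12481 or 12482 genes. These values are a description, since all genes share the same 4 groups. For Htr1a they were Eps8l3 (r = 0.985), Prr36 (0.977) and Cyrib (0.948), and with group means taken away the values were 0.909, 0.706 and 0.200. The level of Eps8l3 was 6.13, 6.02 and 6.06 in KA arrays at 8 h, against 6.75, 6.73 and 6.79 in controls, and 6.58, 6.58 and 6.44 in KA arrays at 14 d, against 6.77, 6.79 and 6.78 in controls (log2). Like Htr1a, Eps8l3 was thus lower in every KA array at both times and closer to its controls at 14 d.

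For Htr4 the nearest genes were Skil (r = 0.953), a repressor in the TGF-beta pathway, Tsc22d4 (0.936) and Nek6 (0.927). With group means taken away these values were 0.721, 0.624 and 0.502. Skil rose by 0.84 at 8 h and by 0.65 at 14 d (log2). For Htr5b they were Hlf (0.955), a transcription factor of the clock-controlled PAR family, Pex26 (0.945) and Sirt3 (0.938). For Htr1b they were Tex2 (0.947), Sf1 (0.939) and St8sia1 (0.926), for Htr2c Elob (0.887), Zc3h7a (0.871) and Calml4 (0.868), and for Htr7 Rab18 (0.821), Rab5b (0.758) and Chst13 (0.757). The flat receptors Htr2c and Htr7 had the lowest top values.

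Other serotonin receptor genes showed no called change, beside 17.5% of all genes called at 8 h and 2.56% at 14 d. Of 7 with a probe set, 5 were tested and none was called at 8 h, where changes ran from -0.25 to 0.12 (log2, median -0.13), or at 14 d, where they ran from -0.23 to 0.10 (median -0.02). Htr3a, the ion channel subunit of a class of interneurons, had log2 levels of 4.91, 4.92 and 4.78 in KA arrays at 8 h, against 5.23, 5.14 and 5.00 in controls, with no overlap. Its change was -0.25 ± 0.13 (SE, limma adjusted p = 0.211, n = 3 each), and in the alternative fit that blocks on replicate number the limma adjusted p was 0.0387. Htr1d, Htr2b, Htr5a and Htr6 overlapped between KA and controls at both times, and Htr1f and Htr3b were under background on all arrays.

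Among the 70 pathway genes listed (the other receptors included), 54 were tested, and 5 rose and 8 fell at 8 h, 24.1% of those tested beside 17.5% of all genes. The count was 4 without KA replicate 1, 7 without control replicate 3 and 8 without control replicate 1, all of the 8 h groups. At 14 d, 2 rose and none fell, 3.7% beside 2.56% of all genes, and without control replicate 1 or 3 at 14 d the count was 1. The list was drawn up with earlier results of these arrays known, so these counts describe it only.

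**Figure D4:**
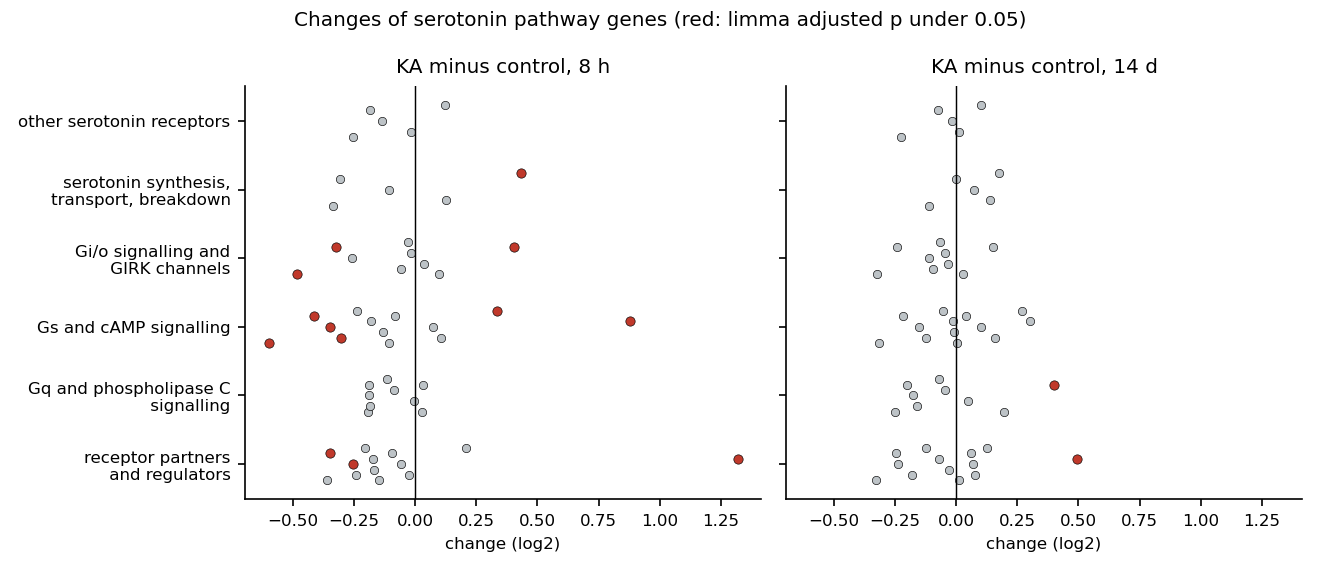
Log2 change (KA minus control) of the 54 serotonin pathway genes tested, by list, at 8 h and at 14 d; each point is a gene, red where the limma adjusted p was under 0.05. Red points number 13 at 8 h, with S100a10 highest at 1.32, and 2 at 14 d.

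S100a10 encodes p11, a protein that binds the 5-HT1B and 5-HT4 receptors and brings them to the cell surface. It had log2 levels of 7.48, 7.52 and 7.35 in KA arrays at 8 h, against 6.03, 6.22 and 6.14 in controls, and 7.23, 6.96 and 7.08 in KA arrays at 14 d, against 6.58, 6.56 and 6.64 in controls. It rose by 1.32 ± 0.09 at 8 h (SE, limma adjusted p = 7.88e-08, n = 3 each) and by 0.49 ± 0.09 at 14 d (limma adjusted p = 0.00552). Beside it, the receptors it binds had changes of 0.27 (Htr1b, not called) and 0.39 (Htr4) at 8 h, and of -0.16 (Htr1b) and 0.38 (Htr4) at 14 d, neither called. Of the other partners and regulators, 2 fell at 8 h: Deaf1 by 0.35 (log2, limma adjusted p = 0.0168) and Cc2d1a by 0.26 (limma adjusted p = 0.0455), both known as regulators of Htr1a transcription. Deaf1 was not called without KA replicate 1 or control replicate 1 or 2 at 8 h (limma adjusted p of 0.0655 to 0.0754), and Cc2d1a was kept only without KA replicate 2 at 8 h or KA replicate 2 or 3 at 14 d (lost without each of the other 9 arrays).

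On the Gi/o side, through which Htr1a and Htr1b act, 3 of 9 genes were called at 8 h and none at 14 d, beside 17.5% and 2.56% of all genes. Kcnj9, the GIRK3 channel subunit, fell by 0.48 ± 0.11 (log2, SE, limma adjusted p = 0.00468, n = 3 each) and Gnaz, the alpha subunit Gz, by 0.32 ± 0.10 (limma adjusted p = 0.0307). The other Kcnj9 probe sets changed by -0.03, -0.20 and -0.23 at 8 h, and 1 of its 4 sets was called when each was tested singly. Kcnj6, the GIRK2 subunit, rose by 0.40 ± 0.11 (limma adjusted p = 0.0167). With the mean of all its probe sets the Kcnj6 change was 0.20 and was not called (limma adjusted p = 0.0812). Kcnj6 was also not called without KA replicate 1 or 3 or control replicate 1 at 8 h (limma adjusted p of 0.0566 to 0.058), and Gnaz without KA replicate 1 or 3 or control replicate 2 or 3 (limma adjusted p of 0.0958 to 0.118).

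On the Gs side, through which Htr4 and Htr7 act, 6 of 13 genes were called at 8 h, 2 higher and 4 lower, and none at 14 d. The shares over all genes were 17.5% at 8 h and 2.56% at 14 d, and these counts describe the list only. Pde4b, a phosphodiesterase that breaks down cyclic AMP, rose by 0.88 ± 0.12 (log2, SE, limma adjusted p = 0.000124, n = 3 each). Adenylyl cyclases Adcy2 and Adcy1 fell by 0.30 ± 0.08 (limma adjusted p = 0.0157) and 0.35 ± 0.10 (limma adjusted p = 0.0187). Prkaca, a catalytic subunit of protein kinase A, fell by 0.42 ± 0.11 (limma adjusted p = 0.0162). The calls of Adcy2, Adcy1 and Prkaca were lost without KA replicate 1 or control replicate 3 at 8 h (limma adjusted p of 0.0575 to 0.089). That of Adcy1 was also lost without KA replicate 2. The other 2 called genes were adenylyl cyclases too. Adcy8 rose by 0.33 ± 0.10 (limma adjusted p = 0.0376) and Adcy9 fell by 0.60 ± 0.19 (limma adjusted p = 0.0361), so the called cyclases went both ways.

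On the Gq side, through which Htr2c acts, none of 9 genes was called at 8 h, beside 17.5% of all genes (2.56% at 14 d), with changes of -0.19 to 0.03 (log2). At 14 d Itpr2, an inositol trisphosphate receptor, rose by 0.40 ± 0.08 (SE, limma adjusted p = 0.0109, n = 3 each), and it was not called without control replicate 1 or 3 at 14 d (limma adjusted p of 0.0654 and 0.0518). Its probe set is of a kind that can match several transcripts, and with such sets left out the change was 0.24 and was not called. Of the genes that make, carry or break down serotonin, 5 of 12 were tested. Ddc, the decarboxylase of the last step of synthesis, rose by 0.43 ± 0.10 at 8 h (limma adjusted p = 0.00605). With the mean of its probe sets the Ddc change was 0.21 and was not called (limma adjusted p = 0.0753), nor was it without the third array of every group (0.34, limma adjusted p = 0.0509). Ddc was also lower in controls at 14 d than in controls at 8 h, by a log2 change of -0.61 (limma adjusted p = 0.00527). The Ddc set used lay at 4.20 to 5.55 (log2) and was above background on 8 of 12 arrays. At 14 d it was above background on 2 control arrays and no KA array. The other Ddc set was under background on all 12. Tph2 and Slc6a4 were under background on all 12 arrays. Maoa had no probe set under its symbol and was not analysed here.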

How the data were processed

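Hippocampal RNA was compared over 4 groups of arrays named in the titles, where the word Input has no explanation and was set aside. Per the labels, amplification of 5 ng of RNA took 22 cycles, and 8 µg of cDNA went into labelling. The authors deposited log2 intensities, and RMA and affy are named, with no version, per the submitters' processing notes. Of 45037 probe sets that are not controls, 28898 carried 1 gene symbol, 551 several and 15588 none in the older annotation used, and 28689 were matched by gene ID to the RefSeq gene table (GRCm38.p6), used for names, chromosomes and promoter sequence.

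For each gene the probe set with the highest mean was kept, if above the array's 30th percentile on at least 3 arrays. A fit with 1 mean per group over all 12 arrays was made in limma 3.58.1 under R 4.3.3, with eBayes, two-sided, with Benjamini-Hochberg adjustment over 13853 genes and calls at an adjusted p under 0.05. The fit was tested on simulated data. The receptors, the gene lists and the tests were chosen with earlier results of these data known. Named genes were the receptors, other measured serotonin receptors, up to 4 called genes per list and time, 4 set genes (Slc6a4, Tph2, S100a10, Maoa), and the 3 genes most like each receptor, leaving out predicted genes and those of the X and Y chromosomes. Adcy8 and Adcy9, also called on the Gs side, were named besides. Marker lists covered dentate granule, CA1, CA3, interneuron, astrocyte, microglia, choroid plexus, thalamus and habenula, cortex and amygdala, serotonin neuron and sex-linked genes. Replicate numbers are shared between groups. The deviations of same-numbered KA and control arrays correlated at 0.155, 0.138 and 0.413 at 8 h, and at 0.164, 0.068 and 0.463 at 14 d. At 8 h KA replicate 2 correlated at 0.163 with control replicate 1, and KA replicate 1 at 0.138 with control replicate 2. These values thus do not single out a pairing of replicates 1 and 2. The third arrays, at 0.413 and 0.463 with each other, correlated negatively with replicates 1 and 2 of the other group. Those values were -0.26 to -0.22 at 8 h and -0.44 to -0.08 at 14 d. The third arrays also had the lowest GC-rich background, at 4.10 to 4.27 (log2), against 4.30 to 4.68 on the others. The labels do not say what the third arrays share, and the replicate block was used as an alternative only. Alternatives covered the filter, the probe set, the scaling, the variance model, array weights, the replicate block, the threshold and each array left out.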

Additional observations from a re-analysis of the deposited data

Results flagged for a closer look

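For 3 pathway genes the change after KA differed between the times by the limma test of that difference (change at 14 d minus change at 8 h, log2, n = 3 arrays per group), and Htr1a is given beside them as a description, with no test, since it was picked on these contrasts. Htr1a was at 0.89 on its brighter probe set, with changes of -0.43 at 14 d and -1.32 at 8 h, and at -0.01 on its other, dimmer set. S100a10, the p11 gene, was at -0.82 (limma adjusted p = 0.000935), with rises at both times. Its controls also differed, those at 14 d being higher than those at 8 h by a log2 change of 0.46 (limma adjusted p = 0.0146). The S100a10 difference thus holds a shift of the controls as well as one of the KA arrays. Pde4b, the cyclic AMP phosphodiesterase, was at -0.84 (limma adjusted p = 0.00844), with changes of 0.04 at 14 d and 0.88 at 8 h. Itpr2, the inositol trisphosphate receptor, was at 0.59 (limma adjusted p = 0.00521), with changes of 0.40 at 14 d and -0.19 at 8 h; with the mean of all its probe sets the difference was 0.25 and was not called.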

How the results depend on the processing

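Over 39 results and 945 values under alternatives, 860 were counted as unchanged, and the causes of the other shifts were not tested. For genes tested, unchanged means the same direction and side of the threshold. For Htr5b, which was not tested, it means a shift smaller than the SD within groups. Htr1a at 8 h was called under all 25 alternatives run, at -1.46 to -0.75, which only describes a gene picked on this contrast. Several of these, such as leaving out a 14 d array, could not alter its 8 h change. Receptors called at 8 h, 2 as reported, numbered 1 with the third array of every group left out or an adjusted p under 0.01, and 1 to 2 with 1 array left out. Receptors called at 14 d, 0 as reported, numbered 1 with cyclic loess, 2 with array weights, 2 with the replicate block (Htr1a and Htr4), 1 without the third arrays, and 0 to 1 with 1 array left out. Those called in the difference of changes, 1 as reported, numbered 0 with the mean of all probe sets, and those called between controls, 0 as reported, 1 with array weights. Pathway genes called at 8 h, 13 as reported, numbered 18 with the replicate block, 17 with array weights, 8 without the third arrays, 4 at an adjusted p under 0.01, and 4 to 14 with 1 array left out. Those called at 14 d, 2 as reported, numbered 11 with array weights, 1 with the mean of all probe sets, without shared probe sets, without the third arrays or at an adjusted p under 0.01, and 1 to 3 with 1 array left out. A pairing of same-numbered arrays is not established for replicates 1 and 2 at either time, while the third arrays resembled each other. At 8 h the replicate block changed no call of the 5 receptors tested, while Htr3a passed with it (limma adjusted p = 0.0387). Signs turned for some values: Htr7 at 14 d (0.04 as reported) was between -0.0086 and 0.0761 with 1 array left out. The Htr4 difference of changes was 0.0265 with the mean of probe sets, 0.0094 with median centring, 0.0552 with array weights, 0.138 without the third arrays and -0.0838 to 0.113 with 1 array left out. Htr5a at 8 h (-0.13 as reported) was 0.0104 with the mean of probe sets, and with 1 array left out Htr1d at 8 h was -0.0996 to 0.0686 and Pde4b at 14 d -0.0285 to 0.159. Levels near background, as for Htr5b, Ddc and the dimmer sets of Htr1a, Htr4 and Htr7, limit what their changes can show.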

Other observations

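Glial markers moved beside the neuronal ones, on arrays where 17.5% of all genes were called at 8 h and 2.56% at 14 d. Of 5 microglia markers, 3 fell at 8 h and 4 rose at 14 d, with summed intensities of 348 to 407 in KA arrays at 8 h, against 462 to 553 in controls, and 1175 to 1253 in KA arrays at 14 d, against 679 to 730.1 in controls. Of 5 astrocyte markers, 1 rose at 8 h and 3 rose at 14 d, with sums of 3412 to 4037 in KA arrays at 8 h, against 2558 to 2733 in controls, and 5224 to 6448 in KA arrays at 14 d, against 2784 to 3083 in controls. Their part in the receptor levels was not tested.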
